A study of Mus musculus with 2 samples.

Results

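At E18.5, single-cell RNA sequencing of mouse esophageal epithelium gave 595 cells that met a rule for simple columnar cells in the library from p63-KO embryos, out of 2422 cells of that library that passed the filters and 8209 in both libraries. The p63-KO embryos carried p63-CreER on both alleles (genotype p63-CreER/p63-CreER), and the littermates labelled wild type had the genotype p63-CreER, so the p63-CreER allele was present in both groups. Both groups were of the C57BL/6 strain, and each was represented by 1 library. The muscle layer was removed from the esophagus by hand, and the epithelium was released with dispase and trypsin, so that cells of the underlying stroma could be carried along. The columnar cells were those with at least 10 UMIs of Krt8 and Krt18 together per 10000 UMIs of the cell (CP10K), less than 50 CP10K of Krt13 and Krt4, less than 5 CP10K of Chgb, less than 1 CP10K of Foxi1 and of Gzma, less than 3 CP10K of Mki67, Top2a, Cenpf and Ube2c together, and less than 10 CP10K of Dnah12, Spag16, Rp1, Dynlrb2 and Cfap54 together. Cells with at least 12 CP10K of Agr2 and at least 1 CP10K of Muc5b were left out as mucous cells. The columnar cells made up 24.6% of the filtered p63-KO cells (exact 95% binomial interval 22.9% to 26.3%). A UMI of Epcam, an epithelial adhesion molecule, was found in 588 of them, and these were 31.8% of the 1848 Epcam-positive p63-KO cells (29.7% to 34%). They are called columnar cells here by that rule. The label did not hold evenly over them: a subcluster of 49 cells had 7212 CPM of neuroendocrine markers and 111 CPM of the markers given for the class (CPM, UMIs per 1000000), and one of 143 cells led with genes of different cell types. They were set against the other 1260 Epcam-positive p63-KO cells and against 5459 Epcam-positive wild-type cells.

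The p63 protein, encoded by Trp63, is a transcription factor of the p53 family that basal cells of stratified epithelia need to form and renew a layered, squamous tissue. The embryonic esophagus begins as a simple columnar tube, and its epithelium normally stratifies before birth. A simple epithelium is a single layer whose cells rest on the basement membrane and face the lumen with their apical surface. Its cells carry the keratin pair Krt8 and Krt18, often with Krt7, Krt19 or Krt20, in place of the pair Krt5 and Krt14 of basal cells or the pair Krt4 and Krt13 of the esophageal suprabasal layers. Its apical surface is commonly covered by transmembrane mucins such as Muc1 and by secreted trefoil peptides.

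Because the rule read the same UMIs that are compared here, and because each genotype was 1 library, all comparisons are descriptions without a test of replicates. Each level is the sum of a gene's UMIs over the cells of a class scaled to 1000000 UMIs of that class (CPM), a fold is the ratio of 2 such levels, and its 95% interval covers counting error only. A gene is called higher or lower when the log2 ratio of CPM plus 1 passed 1 in size, among genes with at least 5 CPM in either class. The library cannot be told apart from the genotype in any comparison with wild type. The median cell had 23720 UMIs in the columnar class, 24037 UMIs in the other p63-KO epithelial cells and 11398 UMIs in the wild-type epithelial cells. Both libraries held cells with Xist UMIs and no Y-linked UMIs as well as cells with Y-linked UMIs and no Xist UMIs, so each contained embryos of both sexes. Both kinds of UMI were found in 134 of 595 columnar cells, in 252 of 1260 other p63-KO cells and in 487 of 5459 wild-type cells. The libraries shared 8 cell barcodes.

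Of the thresholds, the one on Krt13 and Krt4 passed through a continuous range of cells, and the one on Krt8 and Krt18 through a sparser one. Within 20% of the Krt13 and Krt4 limit lay 75 columnar cells on the inside and 80 cells on the outside, and the nearest values were 49.9 CP10K inside and 50.1 CP10K outside. Within 20% of the Krt8 and Krt18 minimum lay 22 cells on each side, with nearest values of 10.1 CP10K inside and 9.82 CP10K outside. The columnar class therefore was a range cut from these scores. Its cells had a median of 24.8 CP10K of Krt8 and Krt18 and a median of 20.5 CP10K of Krt13 and Krt4, with a 10th percentile of 1.29 and a 90th percentile of 42.0 CP10K for the squamous pair.

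**Figure D1:**
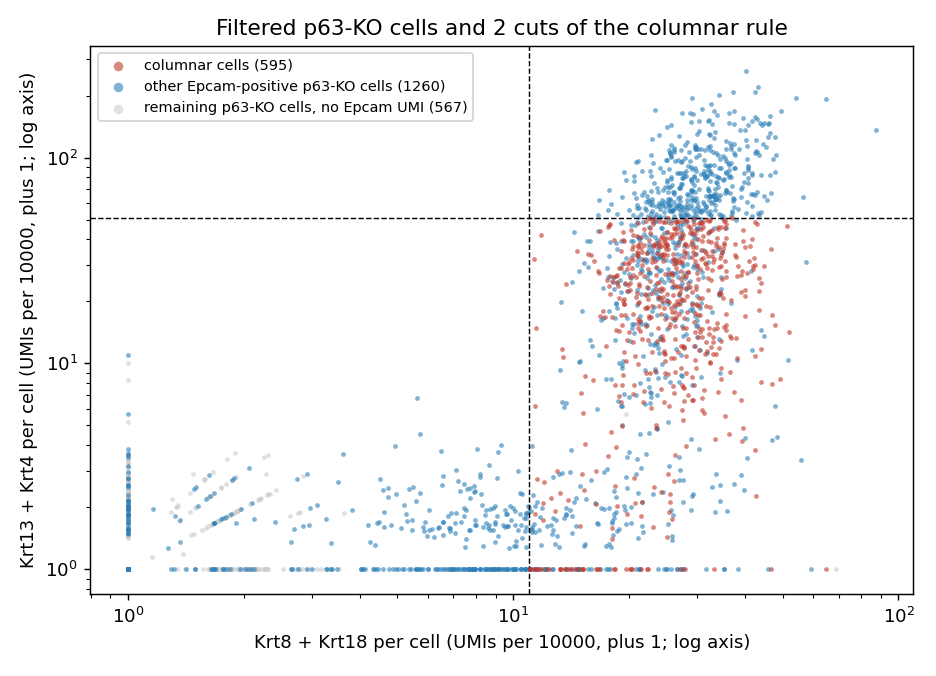
Each point is 1 filtered p63-KO cell, with summed Krt8 and Krt18 (horizontal log axis) and summed Krt13 and Krt4 (vertical log axis) in UMIs per 10000 UMIs of the cell plus 1. Dashed lines mark 2 thresholds of the rule, and the 595 columnar cells run on without a gap into the cells above the horizontal line.

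The label was checked against marker genes. All 8 epithelial markers were found in at least 25% of columnar cells. Their summed level was 6764 CPM in columnar cells, 6340 CPM in the other p63-KO cells and 3606 CPM in wild-type cells. The 8 include Krt8 and Krt18, which the rule required in columnar cells, so the difference between these sums is partly set by the rule. The 8 markers of mesothelium, the lining of body cavities, summed to 1074 CPM in columnar cells, 1110 CPM in the other p63-KO cells, 103 CPM in wild-type cells and 37.4 CPM in stromal cells. Of these 8, Msln, the surface protein mesothelin, and the mucin Muc16 were found in at least 25% of columnar cells, and 3 or more of the 8 were found together in 17.1% of columnar cells. Among 26187443 UMIs of the columnar cells the mesothelial markers Bnc1 had 0, Lrrn4 had 1 and Wt1 had 2. Wild-type epithelial cells also held Bnc1, with a log2 ratio of -2.76 for columnar cells without subclusters 1 and 6 over wild type. The count of Bnc1 therefore does not tell mesothelium from epithelium here. Endothelial markers summed to 17.6 CPM and immune markers to 13.4 CPM in columnar cells. The columnar cells thus carried the markers of an epithelium, and the 2 keratins of a simple epithelium by the rule itself. Marker lists of several other epithelial types also had counts in them. The largest sum was that of the 7 basal cell markers, 5696 CPM in columnar cells, 4464 CPM in the other p63-KO cells and 12163 CPM in wild-type cells. Most of it in columnar cells was Krt15, described below. At least 3 of the 7 were found together in 64.7% of columnar cells and 42.9% of the other p63-KO cells. In columnar cells the other sums were 2343 CPM for mucous cell markers, 1174 CPM for ionocyte markers, 435 CPM for neuroendocrine markers and 2793 CPM for suprabasal squamous markers. Of the 7 ionocyte markers, 2 were found in at least 25% of columnar cells. In columnar cells without subclusters 1 and 6, the potassium channel Kcnma1 had 1002 CPM and Cftr 66.5 CPM. There Foxi1, which the rule limited, had 2.66 CPM, Ascl3 2.14 CPM, Atp6v0d2 1.99 CPM and Stap1 5.76 CPM. The neuroendocrine sum was uneven over the cells, with a median columnar cell at 0.31 CP10K, 7212 CPM in subcluster 6 of the columnar cells and 35.4, 28.6 and 22.4 CPM in subclusters 2, 3 and 5.

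Transcripts of fibroblasts were present in both p63-KO classes. The 8 fibroblast markers summed to 921 CPM in columnar cells, 1852 CPM in the other p63-KO epithelial cells, 49.9 CPM in wild-type epithelial cells and 44104 CPM in 423 p63-KO stromal cells. Decorin, Dcn, a proteoglycan of the matrix, made up much of the sum in columnar cells, with 497 CPM there, 507 CPM in the other p63-KO cells, 35.3 CPM in wild-type cells and 4968 CPM in stromal cells. The share of columnar cells with a Dcn UMI was 91.8%. The collagen gene Col1a1 stood at 129 CPM in columnar cells, 383 CPM in the other p63-KO cells, 5.43 CPM in wild-type cells and 11479 CPM in stromal cells, so that its level relative to stroma was lower than that of Dcn in the same classes. Fibroblast markers exceeded 20 CP10K in 32 columnar cells (5.38%) and in 150 other p63-KO cells (11.9%). Of the other p63-KO cells, 394 of 1260 fell under the Krt8 and Krt18 minimum, which no columnar cell did by the rule.

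The 5 markers given for this class were all present in it, but none of them set it far apart from the rest of the p63-KO epithelium. Tnfrsf11b, which encodes osteoprotegerin, a secreted decoy receptor for the cytokine RANKL, had 107 CPM in columnar cells, 78.1 CPM in the other p63-KO cells and 2.88 CPM in wild-type cells. Krt20, a type I keratin of gastrointestinal and urothelial surface cells, had 32.1 CPM in columnar cells, 27.1 CPM in the other p63-KO cells and 4.85 CPM in wild-type cells. Msln had 533 CPM in columnar cells, 487 CPM in the other p63-KO cells and 64.4 CPM in wild-type cells. These 3 genes were 1.36-fold, 1.18-fold and 1.09-fold as high in columnar cells as in the other p63-KO cells, and 37.0-fold, 6.61-fold and 8.27-fold as high as in wild-type cells. In the neighbouring class with more Krt13 and Krt4 they were higher than in columnar cells, at 117 CPM for Tnfrsf11b, 47.6 CPM for Krt20 and 775 CPM for Msln.

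Cryab and Ntf3 separated the class more. Cryab, the small heat shock protein alpha B-crystallin, had 82.0 CPM in columnar cells and 42.5 CPM in the other p63-KO cells, a 1.93-fold ratio (1.82 to 2.05), against 1.90 CPM in wild-type cells. Stromal cells had a level close to that of columnar cells, 80.3 CPM. Ntf3, the neurotrophin NT-3, had 22.0 CPM in columnar cells and 10.5 CPM in the other p63-KO cells, a 2.08-fold ratio (1.85 to 2.35), and stromal cells had 1.70 CPM. In wild-type cells Ntf3 had 47.7 CPM, so that columnar cells held 0.460-fold the wild-type level (0.421 to 0.503). Cycling p63-KO epithelial cells had levels of these 2 genes close to those of columnar cells, with 87.6 CPM of Cryab and 25.2 CPM of Ntf3.

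The share of cells with a marker depended on depth. In cells thinned to 5000 UMIs, which kept 575 columnar, 1227 other p63-KO, 5155 wild-type and 403 stromal cells, Tnfrsf11b was found in 33.2% of columnar cells, 21% of other p63-KO cells, 0.892% of wild-type cells and 6.20% of stromal cells. Msln was found in 81.2% of columnar cells, 56.4% of other p63-KO cells, 9.0% of wild-type cells and 4.47% of stromal cells. Cryab was found in 31.1% of columnar cells and 13.3% of other p63-KO cells, and in 24.3% of stromal cells. Without thinning, Tnfrsf11b was found in 70.3%, Msln in 90.1% and Cryab in 66.9% of columnar cells. At least 3 of the 5 markers were found together in 110 of 575 thinned columnar cells (19.1%, 16% to 22.6%), in 90 of 1227 other p63-KO cells (7.33%), in 4 of 5155 wild-type cells (0.0776%) and among stromal cells in 0 of 403, which allows a share of up to 0.911% (exact binomial interval). Without thinning this share was 66.2% in columnar cells, 40.9% in other p63-KO cells and 1.32% in wild-type cells. Across the 575 thinned columnar cells, Spearman correlations between the 5 markers ranged from -0.04 to 0.17, given as a description of sparse counts that share their depth.

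**Figure D2:**
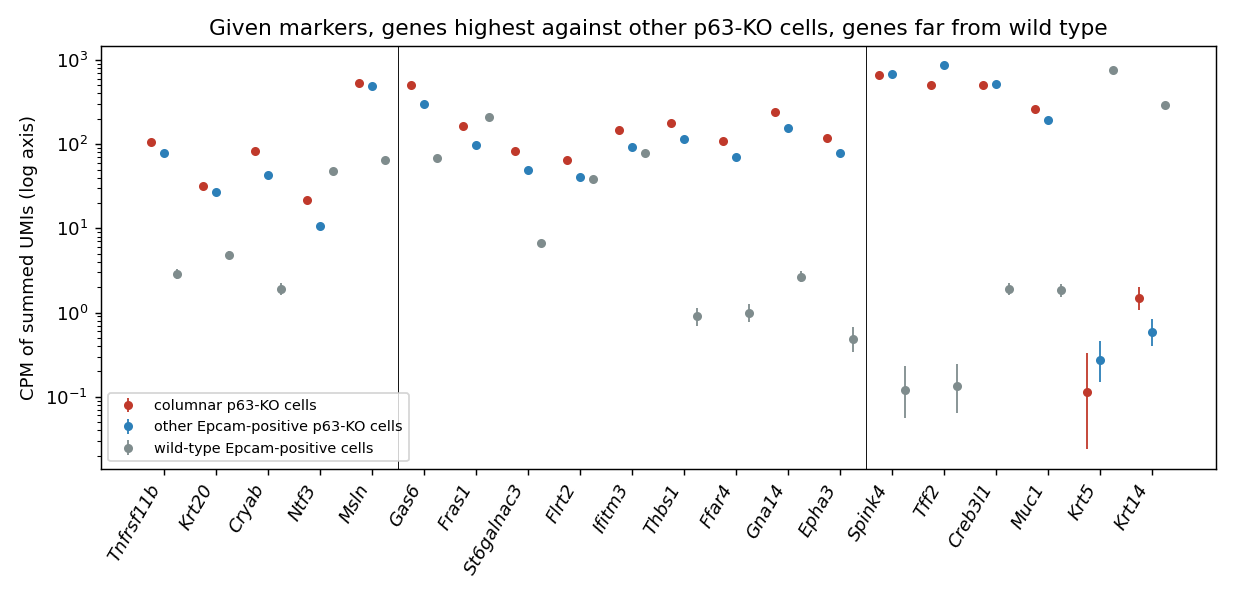
Levels in CPM (log axis) of the 5 given markers, of 9 genes highest against the other p63-KO cells, and of 6 genes far from wild type; points are sums over the columnar, other p63-KO and wild-type epithelial cells, and bars are exact 95% Poisson intervals for counting error. The red and blue points lie close together left of the second vertical line, while the grey wild-type points lie far below them for Tnfrsf11b, Cryab, Thbs1, Ffar4, Gna14 and Epha3 and above them for Ntf3 and Fras1.

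Promoters of 2 of these genes are printed to show the sequence before a given marker and a surface mucin that were both higher in columnar cells than in wild-type cells. The promoter table of RefSeq (build GRCm38.p6) held 3 of the 6 genes looked up, which were the 5 given markers and Muc1. The window runs from 250 bases before to 50 bases after the gene start. Muc1 lies at chr3:89228806-89229105 on the + strand and Krt20 at chr11:99438104-99438403 on the - strand, and both are written 5' to 3' with capitals for a match to AP-1, forkhead or grainyhead-like (GRHL) letters.
Muc1: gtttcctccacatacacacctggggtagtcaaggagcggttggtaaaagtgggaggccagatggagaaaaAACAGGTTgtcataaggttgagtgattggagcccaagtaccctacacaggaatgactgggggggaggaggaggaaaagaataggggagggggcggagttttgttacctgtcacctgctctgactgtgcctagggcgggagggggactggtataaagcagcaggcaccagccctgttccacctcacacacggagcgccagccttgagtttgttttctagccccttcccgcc
Krt20: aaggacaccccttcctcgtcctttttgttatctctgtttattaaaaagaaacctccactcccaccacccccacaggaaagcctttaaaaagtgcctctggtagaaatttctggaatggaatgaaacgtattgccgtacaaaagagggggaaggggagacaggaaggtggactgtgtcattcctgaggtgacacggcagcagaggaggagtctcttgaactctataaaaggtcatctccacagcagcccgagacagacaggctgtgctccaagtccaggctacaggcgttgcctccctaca
The motifs searched on both strands were TGANTCA for AP-1, TGTTTAC for forkhead factors and AACCNGTT for GRHL factors. The capitals in the Muc1 window are its 1 GRHL match, and neither window held the AP-1 or the forkhead letters. Among 32851 promoters of the same length, 2.09% held the GRHL letters, 7.81% the AP-1 letters and 3.65% the forkhead letters. A match is a description of these letters.

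Against the other Epcam-positive p63-KO cells, the columnar cells were defined more by what they lacked than by what they had. Among the 11615 genes measured, 3 were called higher in columnar cells (0.0258%) and 768 lower (6.61%) on the log2 ratio of CPM plus 1. Ntf3, 2.08-fold higher in CPM, had a log2 ratio of CPM plus 1 of 0.99 and was not called. The rule removed from the class the cells of the specialised types, and these counts describe that choice. The 3 genes called higher were Pdpn, which encodes the surface mucoprotein podoplanin, Scx, a transcription factor of tendon, and Cxcl15, a chemokine of mouse epithelia. Pdpn had 40.7 CPM in columnar cells and 19.3 CPM in the other p63-KO cells, a 2.10-fold ratio (1.93 to 2.30). Scx had 16 CPM in columnar cells and 7.39 CPM in the other p63-KO cells, and Cxcl15 had 7.14 CPM in columnar cells and 3.05 CPM in the other p63-KO cells.

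After Cryab, Gas6, Fras1 and St6galnac3 had the highest ratios among genes with at least 50 CPM. Gas6, the secreted ligand of the receptor kinases Tyro3, Axl and Mertk, had 509 CPM in columnar cells and 298 CPM in the other p63-KO cells (1.71-fold, 1.67 to 1.75), and a Gas6 UMI was found in 91.1% of columnar cells and 73.0% of the other p63-KO cells. Fras1, an extracellular protein of the epithelial basement membrane, had 165 CPM in columnar cells and 96.8 CPM in the other p63-KO cells. St6galnac3, a sialyltransferase, had 83.8 CPM in columnar cells and 49.1 CPM in the other p63-KO cells. The same order of difference, 1.51-fold to 1.59-fold, was found for Flrt2, a guidance ligand, for Ifitm3, a protein that restricts virus entry, for Thbs1, the matrix glycoprotein thrombospondin-1, for Ffar4, a receptor for long-chain fatty acids, for Gna14, a G protein subunit, for Ppp2r2b, a phosphatase subunit, for Megf11 and for Epha3, an ephrin receptor. Of these, Epha3 had 120 CPM in columnar cells and 534 CPM in stromal cells. Gna14 had 240 CPM in columnar cells and 3.40 CPM in stromal cells, and Ffar4 had 108 CPM in columnar cells and 1.27 CPM in stromal cells.

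The genes lowest against the other p63-KO cells belonged to the classes that the rule set aside. Plxna4, a semaphorin receptor, had 13.3 CPM in columnar cells and 133 CPM in the other p63-KO cells, and it stood at 731 CPM in the Foxi1-positive cells. Stap1, a signalling adaptor, had 13.2 CPM in columnar cells and 602 CPM in the Foxi1-positive cells. Dgki, a diacylglycerol kinase, had 26.5 CPM in columnar cells and 1235 CPM in the Foxi1-positive cells. Nrxn3, a synaptic adhesion gene, had 12.3 CPM in columnar cells, 598 CPM in the Foxi1-positive and 298 CPM in the Chgb-high cells. Acta2, smooth muscle actin, had 39.2 CPM in columnar cells, 186 CPM in the other p63-KO cells and 1298 CPM in the cells that failed only the Krt8 and Krt18 minimum, and stromal cells had 1456 CPM.

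The Krt8 and Krt18 minimum decided several of these values. When the other p63-KO cells also had to pass it, 57 genes were higher and 330 lower in columnar cells. The log2 ratio of Acta2 was then 1.31. Acta2 had 75.2 CPM in subcluster 1 of the columnar cells, and without subclusters 1 and 6 it had 9.08 CPM in columnar cells and 15.2 CPM in the other p63-KO cells with the minimum, a log2 ratio of -0.69. The median log2 ratio over 16 mesenchymal and cytoskeleton genes was -1.11 against all other p63-KO cells, with 9 of the 16 lower, and 0.73 against those with the keratin minimum. Without subclusters 1 and 6 of the columnar cells, which stood apart from the rest, the median was -0.01 against those with the minimum. The medians of the other 26 gene lists against the other p63-KO cells lay between -0.34 and 0.26, beside -0.04 over all genes, except the uroplakins and umbrella cell genes at -0.69.

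Of the p63-KO classes that failed exactly 1 threshold, 3 were close to the columnar cells across genes. The Krt13 and Krt4 high class (333 cells, median 36975 UMIs) had a Pearson correlation of 0.979 with the columnar class across the log2 levels of 10938 genes, which are not independent replicates. Of those genes, 345 were higher (3.15%) and 54 lower (0.494%) in columnar cells. Psca, a GPI-anchored surface protein, had 82.6 CPM in columnar cells and 513 CPM in the Krt13 and Krt4 high cells. Upk2, a uroplakin of the urothelial surface, had 41.0 CPM in columnar cells and 143 CPM in the Krt13 and Krt4 high cells. Ly6d, a surface marker of stratified epithelium, had 145 CPM in columnar cells and 468 CPM in the Krt13 and Krt4 high cells, and Ltf, lactoferrin, had 197 CPM in columnar cells and 559 CPM in the Krt13 and Krt4 high cells.

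Against the mucous class (122 cells, median 39154 UMIs, correlation 0.972), 219 genes were higher (1.99%) and 157 lower (1.42%) in columnar cells. Tff2, a trefoil peptide that gastric and airway mucous cells secrete, had 501 CPM in columnar cells and 3140 CPM in mucous cells. Muc19, a gel-forming mucin, had 7.33 CPM in columnar cells and 63.2 CPM in mucous cells. In the other direction, Cryab was 3.44-fold as high in columnar as in mucous cells (2.91 to 4.09), and St6galnac3 was 3.61-fold as high (3.05 to 4.31). Sema3a, a secreted semaphorin, had 68.3 CPM in columnar cells and 19.6 CPM in mucous cells. Against the cycling class (119 cells, median 71227 UMIs, correlation 0.961), 238 genes were higher (2.15%) and 251 lower (2.27%) in columnar cells, and the lower ones with the largest ratios were genes of mitosis and replication such as Ccnb1, Nusap1 and Ccna2. Genes with at least 50 CPM that were higher in columnar cells than in every such class were so by little. Gas6 led them with a log2 ratio of 0.24 to the cycling cells, its nearest class, followed by Gna14 with 0.23 and by Bach2, a transcriptional repressor, with 0.14.

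Against wild-type epithelial cells the columnar cells differed widely. Apart from uroplakins and mesenchymal genes, the list medians against the other p63-KO cells were nearer to 0. They were -0.08 for mucous secretory genes, -0.18 for membrane mucins and -0.11 for ion channels and transporters. The differences from wild type below are therefore not read as particular to the columnar class. Among the 11578 genes measured, 1480 were called higher (12.8%) and 1076 lower (9.29%) in columnar cells, and the median log2 ratio over all genes was -0.07. The counts of the lists below stand beside these shares, and a list with shares near them is not set apart from the other genes. In every list, a gene that reached the 5 CPM minimum only in columnar cells had to be higher there. A gene that reached it only in wild-type cells had to be lower. The counts and medians of the lists are therefore partly set by the minimum. Only 25 of 5787 filtered wild-type cells met the rule (0.432%, 0.280% to 0.637%). Those 25 cells had 657 CPM of Krt5 and 10316 CPM of Krt15 and no UMI of Tff2, Spink4, Slc14a1 or Cryab, so they met the keratin thresholds with basal keratins present.

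The keratins set the 2 classes apart in opposite ways. Krt8 had 1336 CPM in columnar cells, 1278 CPM in the other p63-KO cells and 532 CPM in wild-type cells, and Krt18 had 1090 CPM in columnar cells, 978 CPM in the other p63-KO cells and 150 CPM in wild-type cells, both of them genes of the rule. Krt7, another keratin of simple epithelia, had 1032 CPM in columnar cells and 615 CPM in wild-type cells. Krt19 differed little, with 1100 CPM in columnar cells and 958 CPM in wild-type cells. The basal keratin Krt5 was counted with 3 UMIs in all columnar cells (0.115 CPM), against 761 CPM in wild-type cells, a ratio of 0.00015 (3.1e-05 to 0.00044). Its partner Krt14 had 1.49 CPM in columnar cells and 292 CPM in wild-type cells, and Krt17 had 6.34 CPM in columnar cells and 282 CPM in wild-type cells.

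Krt15 and Trp63 did not follow Krt5 and Krt14. Krt15, a type I keratin of basal cells, had 5505 CPM in columnar cells, 4324 CPM in the other p63-KO cells and 10462 CPM in wild-type cells, 0.526-fold the wild-type level. Trp63 transcripts had 139 CPM in columnar cells, 102 CPM in the other p63-KO cells, 302 CPM in wild-type cells and 2.12 CPM in stromal cells, and a Trp63 UMI was found in 80.7% of columnar cells and 84.9% of wild-type cells. Since the part of Trp63 that the CreER allele interrupts is not stated in the labels, these 3' counts do not check the genotype. Sox2, a transcription factor of the foregut, had 155 CPM in columnar cells and 212 CPM in wild-type cells. Of 17 basal cell genes measured, 9 were lower and 2 higher than in wild type, with Col17a1, a collagen of the hemidesmosome, at 2.86 CPM in columnar cells and 232 CPM in wild-type cells. The 2 that were higher were Itga6, an integrin of the basal surface, with 232 CPM in columnar cells and 92.7 CPM in wild-type cells, and Cd44, the hyaluronan receptor, with 93.3 CPM in columnar cells and 17.7 CPM in wild-type cells. Members of lists named here and below were partly chosen after their values were seen.

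Squamous and desmosomal genes were lower. In columnar cells 20 of the 22 squamous differentiation genes measured were lower than in wild-type cells and 0 higher (median log2 ratio -2.97), and 2 of them, Krt13 and Krt4, belong to the rule. Calml3, a calmodulin-like protein of stratified epithelium, had 10.3 CPM in columnar cells and 1060 CPM in wild-type cells. Krt6a had 16.8 CPM in columnar cells and 877 CPM in wild-type cells, and the cross-linking enzyme Tgm3 had 1.03 CPM in columnar cells and 128 CPM in wild-type cells. Of 11 desmosome genes, 7 were lower and 1 higher. Dsg3, the desmoglein of basal keratinocytes, had 7.87 CPM in columnar cells and 356 CPM in wild-type cells, while Pkp2, the plakophilin of simple epithelia and heart, had 53.7 CPM in columnar cells and 5.56 CPM in wild-type cells. Of 29 adherens and tight junction genes, 4 were higher and 3 lower, shares close to those over all genes (12.8% and 9.29%). Cldn3, a claudin of tight junctions, had 599 CPM in columnar cells and 221 CPM in wild-type cells, and Cldn1, the claudin of epidermis, had 0.305 CPM in columnar cells and 22.0 CPM in wild-type cells.

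Mucins and secretory genes were higher. Of 26 mucous secretory genes, 14 reached the 5 CPM minimum and the rest did not, and these 14 were at least 2-fold higher in columnar cells than in wild-type cells (median log2 ratio 3.86). A gene that reached the minimum only in columnar cells had to be higher there, and 2 of the genes, Agr2 and Muc5b, belong to the rule, which limited them in combination. Spink4, a secreted protease inhibitor of goblet cells, had 668 CPM in columnar cells, 686 CPM in the other p63-KO cells, 9 UMIs among all wild-type epithelial cells (0.121 CPM) and 14.9 CPM in stromal cells. Tff2 had 501 CPM in columnar cells and 10 UMIs (0.134 CPM) in wild-type cells. Creb3l1, a membrane-bound transcription factor of secretory cells, had 498 CPM in columnar cells and 1.92 CPM in wild-type cells, and 133 CPM in stromal cells. Spdef, a regulator of goblet cells, had 27.4 CPM in columnar cells and 0.403 CPM in wild-type cells. These genes thus were present in cells below the mucous threshold, at levels between those of wild-type and mucous cells for Tff2.

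The apical surface showed the same direction. Of 5 membrane mucins, 4 were higher, led by Muc1, with 259 CPM in columnar cells, 196 CPM in the other p63-KO cells and 1.83 CPM in wild-type cells (142-fold over wild type, 120 to 169), and by Muc16, with 534 CPM in columnar cells and 19.0 CPM in wild-type cells. After thinning to 5000 UMIs, a Muc1 UMI was found in 66.8% of columnar cells, 46.5% of other p63-KO cells, 0.54% of wild-type cells and 1.99% of stromal cells, and without thinning in 92.6% of columnar cells and 2.07% of wild-type cells. Of 14 apical membrane and microvillus genes, 7 were higher and 2 lower. Muc1 and Prom1 reached the 5 CPM minimum only in columnar cells and so had to be higher there. Prom1, a protein of membrane protrusions, had 61.0 CPM in columnar cells and 0.927 CPM in wild-type cells, and Ezr, the membrane-cytoskeleton linker ezrin, had 697 CPM in columnar cells and 366 CPM in wild-type cells, a ratio under the 2-fold call. Club-type secretory genes were 6 higher and 2 lower of 11, with Wfdc2, a secreted protease inhibitor, at 4562 CPM in columnar cells and 689 CPM in wild-type cells, and with Cyp2f2, an oxidase of airway club cells, at 1550 CPM in columnar cells and 1583 CPM in wild-type cells. Uroplakins and umbrella cell genes went the other way, with 6 of 10 lower and 1 higher, which was Krt20.

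Transport and signalling genes were also different. Among 22 ion channels and transporters, 15 were higher and 3 lower (median log2 ratio 1.89). Slc14a1 and Kcnq1, named next, reached the 5 CPM minimum only in columnar cells and so had to be higher there. Slc14a1, a urea transporter, had 236 CPM in columnar cells and 0.363 CPM in wild-type cells (651-fold, 447 to 988). The potassium channel Kcnq1 had 107 CPM in columnar cells and 1.80 CPM in wild-type cells, its partner Kcne3 had 105 CPM in columnar cells and 8.10 CPM in wild-type cells, and the chloride channel Cftr had 71.8 CPM in columnar cells and 31.2 CPM in wild-type cells. Of 28 growth factor ligands, 12 were higher and 3 lower. Kitl, the ligand of the Kit receptor, had 98.2 CPM in columnar cells and 6.48 CPM in wild-type cells, and Pdgfa, a mitogen for mesenchymal cells, had 55.0 CPM in columnar cells and 192 CPM in wild-type cells. Of 26 Wnt pathway genes, 10 were lower and 5 higher, with the ligand Wnt10a at 1.99 CPM in columnar cells and 86.5 CPM in wild-type cells and the ligand Wnt5b at 592 CPM in columnar cells and 224 CPM in wild-type cells. Hedgehog pathway genes were lower in 4 of 7, including the ligand Shh, with 3.97 CPM in columnar cells and 22.9 CPM in wild-type cells, and the receptor Ptch1, with 26.5 CPM in columnar cells and 71.8 CPM in wild-type cells.

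Transcription factors of the foregut were mixed, with 6 higher and 6 lower of 40 (median log2 ratio -0.07), shares close to those over all genes. Foxa2, a forkhead factor of endoderm, had 44.1 CPM in columnar cells and 13.9 CPM in wild-type cells, and Tfcp2l1 had 140 CPM in columnar cells and 22.4 CPM in wild-type cells. Foxe1, a forkhead factor of thyroid and esophagus, had 9.28 CPM in columnar cells and 162 CPM in wild-type cells, and Sim2 had 0.726 CPM in columnar cells and 110 CPM in wild-type cells. Pax9 had 159 CPM in columnar cells and 229 CPM in wild-type cells, under the 2-fold call. Immediate-early genes were higher in 17 of 22 and lower in 2, with Fos at 1947 CPM in columnar cells, 1667 CPM in the other p63-KO cells and 424 CPM in wild-type cells. Egr1 had 634 CPM in columnar cells and 140 CPM in wild-type cells. Stromal cells of the p63-KO library had 1478 CPM of Fos and 1262 CPM of Egr1. Of 17 MHC class I and antiviral genes, 7 were higher and 0 lower, among them H2-K1, with 186 CPM in columnar cells and 43.2 CPM in wild-type cells. Of 20 p53 target genes, 3 were lower and 1 higher, counts not set apart from the 9.29% and 12.8% over all genes, and Cdkn1a had 125 CPM in columnar cells and 249 CPM in wild-type cells.

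The remaining lists had smaller counts or counts in both directions against wild type, and several were near the shares over all genes. Retinoid genes were lower in 6 of 11 and higher in 2, with Rarb, a retinoic acid receptor, at 24.6 CPM in columnar cells and 175 CPM in wild-type cells and Rdh10, an enzyme of retinoic acid synthesis, at 136 CPM in columnar cells and 9.45 CPM in wild-type cells. Notch pathway genes were lower in 4 of 13 and higher in 1. Hippo target genes were higher in 5 of 15 and lower in 3, glutathione and detoxification genes higher in 5 of 21 and lower in 3, and annexins and S100 genes lower in 4 of 15 and higher in 3. Of 12 neurotrophins and TNF family genes, 5 were higher and 1, Ntf3, was lower. Small heat shock and chaperone genes were higher in 1 of 17, Cryab, and lower in 2, including Hspb1 with 648 CPM in columnar cells and 2006 CPM in wild-type cells. Of 25 gastric and intestinal genes, 3 reached the 5 CPM minimum, and no direction is read from them. Mesenchymal and cytoskeleton genes were higher in 7 of 16 and lower in 2, and the higher ones such as Acta2 were far higher in stromal cells.

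**Figure D3:**
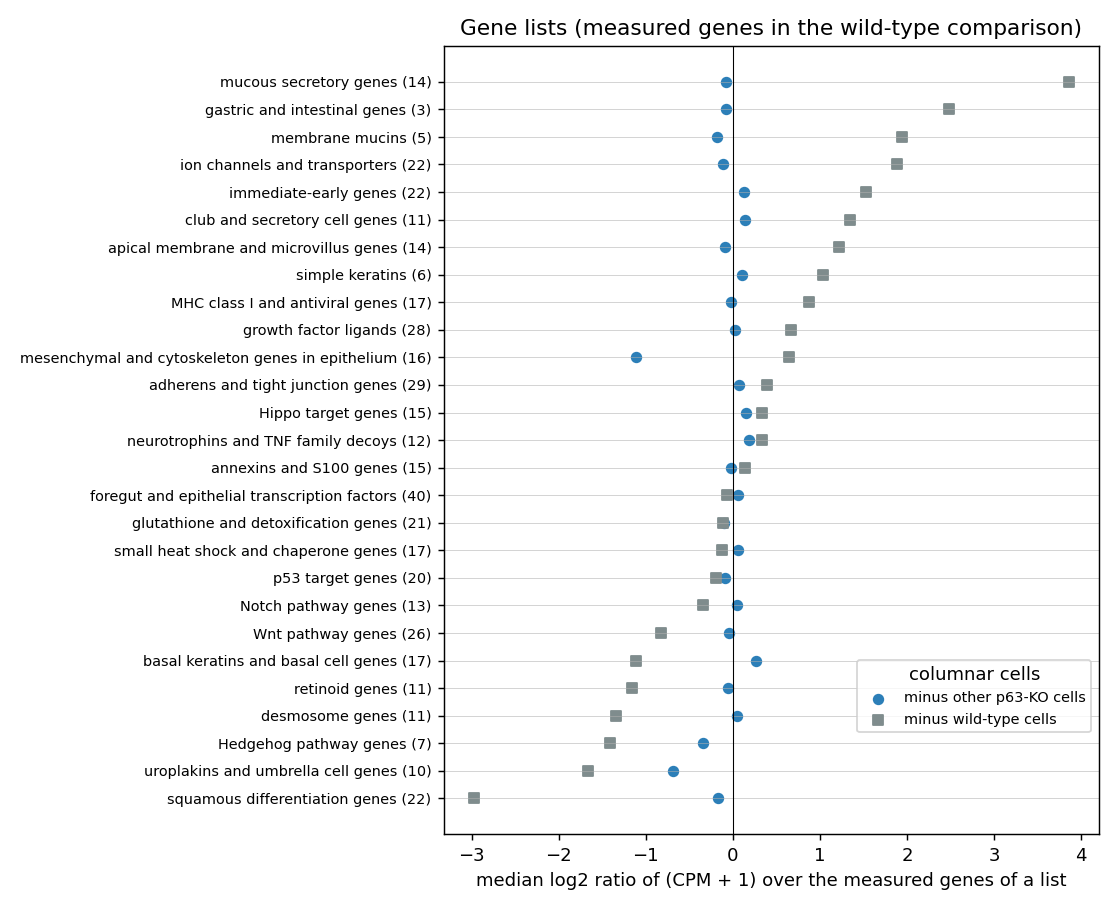
Median log2 ratio of CPM plus 1 (horizontal axis) over the measured genes of each of 27 lists (rows, with the number of genes measured in the wild-type comparison); circles are columnar minus other p63-KO epithelial cells and squares are columnar minus wild-type epithelial cells. The circles lie near 0 except for mesenchymal genes at -1.11 and uroplakins at -0.69, while the squares run from -2.97 for squamous genes to 3.86 for mucous genes.

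The columnar cells were not uniform. Clustering on their own expression gave 6 subclusters (3 at a resolution of 0.3 and 9 at 1.0), whose leading genes describe the clustering. Subcluster 1 (143 cells) was the deepest, with a median of 90434 UMIs, and its leading genes were of different cell types: Sst, the hormone somatostatin, with 136 CPM there and 4.40 CPM in the other columnar cells, Col1a1 with 259 CPM there and 21.3 CPM in the other columnar cells, and Psca with 165 CPM there and 14.5 CPM in the other columnar cells. Of its cells 68 had both Xist and Y-linked UMIs, and 16 of the 18 doublets called among columnar cells were in it. Subcluster 6 (49 cells, median 15504 UMIs) was neuroendocrine-like, with 8 of 9 neuroendocrine markers in at least 25% of its cells. It had 1853 CPM of Syt1, a vesicle protein, and 1820 CPM of Calca, which encodes the peptide CGRP. The 5 given markers summed to 111 CPM in subcluster 6 and to 795 CPM in the other columnar cells, and Krt15 had 494 CPM in subcluster 6.

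Subclusters 2 to 5 had different leading genes. Subcluster 2 (126 cells, median 49842.5 UMIs) led with Epha3, at 189 CPM there and 93.9 CPM in the other columnar cells, followed by Trabd2b, St6galnac3, Flrt2 and Fras1. Subcluster 3 (100 cells, median 21984 UMIs) led with Tff2, at 991 CPM there and 443 CPM in the other columnar cells, and with Cbr2, a carbonyl reductase of airway club cells, and Agr2. Subcluster 4 (93 cells, median 16734 UMIs) led with Ifitm1, at 72.8 CPM there and 10.3 CPM in the other columnar cells. Smoc2, a matricellular protein, had 375 CPM there and 78.0 CPM in the other columnar cells. Without thinning, an Ifitm1 UMI was found in 29.0% of its cells and 27.1% of the other columnar cells, and a Smoc2 UMI in 68.8% and 75.7%. These genes thus did not mark a larger share of its cells. Erythroid markers summed to 974 CPM in subcluster 4 and 55.1 CPM in the other columnar cells, while its median cell had 0 CP10K. Subcluster 5 (84 cells, median 19557.5 UMIs) led with Cryab, at 234 CPM there and 69.4 CPM in the other columnar cells, and with Flrt2, Sema3a and Pdpn, and the replication genes Mcm7 and Mcm3 were also among its 10 leading genes.

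**Figure D4:**
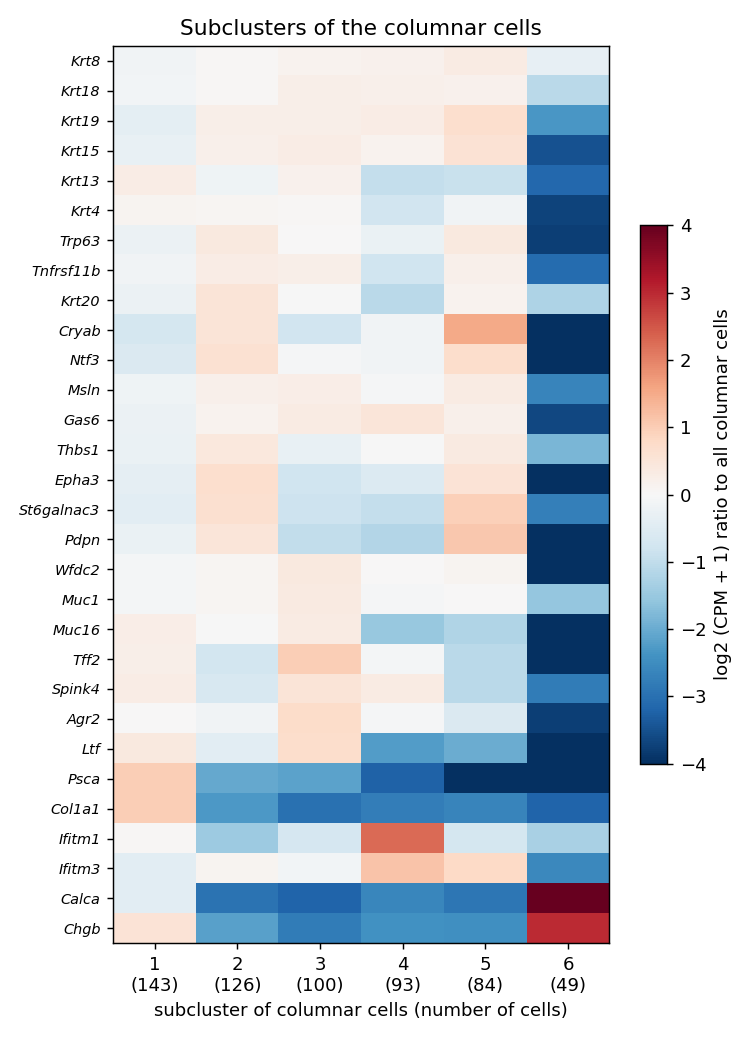
Log2 ratio of CPM plus 1 (colour, limited to 4 in size) of selected genes (rows) in each subcluster (columns, with the number of cells) to all columnar cells. Subcluster 6 departs most, with higher Calca and Chgb and lower Krt15, Msln and Wfdc2; subcluster 1 is higher for Psca and Col1a1, and subclusters 2 and 5 for Cryab and St6galnac3.

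**Figure D5:**
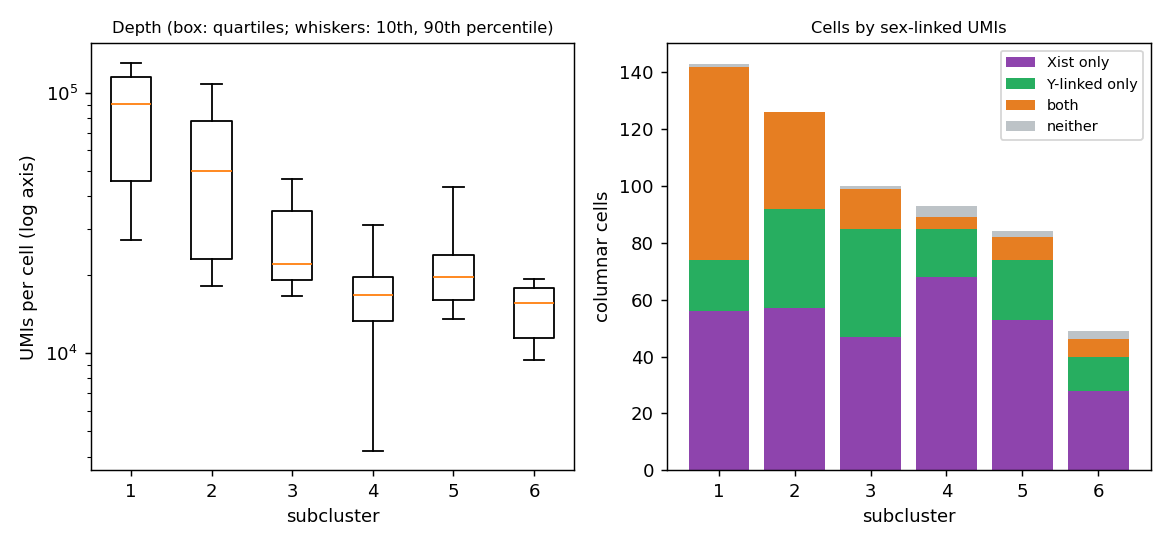
Left, UMIs per cell (log axis) by subcluster, with boxes for quartiles, a line for the median and whiskers at the 10th and 90th percentiles; right, number of cells by sex-linked UMIs, stacked. Subcluster 1 has the highest median, 90434 UMIs, and 68 of its 143 cells have both Xist and Y-linked UMIs.

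Subclusters 1 and 6 were defined on the same UMIs and were left out after their values were seen, on the columnar side only. The 5 given markers summed to 658 CPM in subcluster 1 and 873 CPM in the other columnar cells. In subcluster 6 they summed to 111 CPM, beside 795 CPM in the other columnar cells. Leaving both out therefore raises the summed level of these markers, and the folds below describe that choice. Leaving out both gave 403 columnar cells with a median of 21592 UMIs, and against the other p63-KO cells with the keratin minimum (866 cells, median 38680 UMIs) 21 genes were higher and 564 lower. Among genes with at least 50 CPM and a UMI in at least 25% of these columnar cells, haemoglobin genes left out, Cryab had the highest ratio, with 115 CPM in these columnar cells and 42.9 CPM in the others (2.68-fold), followed by Sema3a (2.63-fold), Trabd2b (2.41-fold), St6galnac3 (2.25-fold), Epha3 (2.11-fold), Fras1 (2.08-fold) and Flrt2 (2.05-fold). Ntf3 was 2.54-fold as high and Gas6 1.79-fold as high in these columnar cells, while Tff2 was 0.461-fold as high. Against wild type, 1256 genes were higher and 1160 lower without both subclusters, and the list medians were 4.32 for mucous genes, 2.0 for membrane mucins, 1.61 for ion channels and -2.79 for squamous genes.

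Within the class, cells with less Krt13 and Krt4 differed from cells with more. The cells were split by the rule's own measure into parts of 198, 198 and 199 cells, with median depths of 17534, 32779.5 and 50836 UMIs from the lowest to the highest part, of which 14, 51 and 78 cells were in subcluster 1. Psca had 4.97 CPM in the lowest, 16.2 CPM in the middle and 160 CPM in the highest part, and Ltf had 35.7, 154 and 287 CPM in the same order. Muc16 had 211, 489 and 684 CPM from the lowest to the highest part. In the opposite direction, Calca had 326 CPM in the lowest part and 25.2 and 49.2 CPM in the others, and Cryab had 112, 96.5 and 60.6 CPM from the lowest to the highest. Subcluster 6, the neuroendocrine-like one, had a median of 0 CP10K of Krt13 and Krt4. Krt8, with 1278, 1320 and 1368 CPM, and Muc1, with 259, 273 and 248 CPM, differed little across the parts. Depth differed along with the parts, and its part was not tested.

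Across the 575 thinned columnar cells, which share 1 library, some genes went together. The Spearman correlation was 0.60 for Krt19 and Krt15, 0.52 for Krt13 and Krt4, 0.49 for Krt15 and Wfdc2, 0.48 for Krt13 and Muc16, and 0.44 for Tff2 and Spink4. Krt8 and Krt18, the keratin partners of the rule, had a correlation of 0.21.

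The sex-linked transcripts allowed the comparison to be made in 2 separate parts of the same library. The same rule chose the columnar cells in both parts, so like ratios are not an independent repeat. Cells with both Xist and Y-linked UMIs were in neither part. These were 134 columnar cells, of which 68 were in subcluster 1, and 252 other p63-KO cells, so the parts differ from the whole class. Cells with Xist UMIs only were 309 columnar cells, 730 other p63-KO cells and 3351 wild-type cells, and in these 10 genes were higher and 983 lower in columnar than in other p63-KO cells. Cells with Y-linked UMIs only were 141 columnar cells, 256 other p63-KO cells and 1431 wild-type cells, and in these 46 genes were higher and 1213 lower. The log2 ratio of columnar to other p63-KO cells was 1.01 in Xist cells and 1.15 in Y-linked cells for Gas6, 1.06 and 1.25 for Cryab, and 1.22 and 1.33 for Ntf3, in the same order. For Krt20 it was 0.44 in Xist cells and -0.30 in Y-linked cells. Against wild type, 1464 genes were higher and 1066 lower in Xist cells, and 1652 higher and 1296 lower in Y-linked cells.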

How the data were processed

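Libraries were made with a 10x Genomics 3' kit, per the labels' protocols. The authors deposited raw UMI counts per gene and cell, 1 library per genotype, made with Cell Ranger 7.1.0 and the mm10 genome, per the submitters' processing notes. The p63-KO library held 2821 barcodes and 86504624 UMIs and the wild-type library 6034 barcodes and 76472445 UMIs, over 32285 genes.

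Filters kept cells having 500 or more genes, 1000 or more UMIs and no more than 10% of UMIs from mitochondrial genes. Doublets were scored against simulated cell pairs at an expected 0.8% per 1000 cells (planted pairs recovered: 47 of 100 in the p63-KO library, 38 of 100 in the wild-type library). This called 47 p63-KO cells (1.94%), 18 of them columnar, and 268 wild-type cells (4.63%), which stayed in except in 1 alternative. UMIs were summed per class, scaled to CPM, and compared as log2 ratios with a pseudocount of 1. Intervals were exact 95% binomial (Clopper-Pearson for shares) or Poisson intervals, which cover counting error only. There were no tests between the libraries and no p-values. Stromal cells had no Epcam UMI and at least 20 CP10K of Col1a1 and Col3a1. Subclusters came from Leiden clustering (resolution 0.6, 2000 variable genes, 20 components, 15 neighbours). Tools were Python 3.11.15, numpy 2.4.6, scipy 1.17.1, pandas 2.3.3, scikit-learn 1.9.0, leidenalg 0.10.2 and matplotlib 3.10.9.

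The class, its markers and the 27 gene lists were chosen with earlier results of these data known. Genes named by rule were the 5 given markers, the 12 highest and 10 lowest against other p63-KO cells, the 8 highest over every class that failed 1 threshold, and the 8 highest and 8 lowest against wild type (each with at least 50 CPM and a UMI in at least 25% of the cells of the higher class, without mitochondrial, ribosomal, haemoglobin, sex-linked and rule genes), and list members with large ratios or at least 500 CPM. The other named genes were chosen after their values were seen.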

Additional observations from a re-analysis of the deposited data

How the results depend on the processing

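No paired analysis was possible because each group is 1 library. The count of genes higher against the other p63-KO cells, 3, rests on few genes near the 2-fold limit. It was 1 with doublets removed, with a keratin minimum of 20 CP10K, with the rule applied to cells thinned to 5000 UMIs and with a minimum of 20 CPM, and 0 with a pseudocount of 5. It was 6 with a mitochondrial maximum of 5%, 10 in Xist cells, 46 in Y-linked cells, and 20 both with a Krt13 and Krt4 limit of 25 CP10K and with cells weighing equally. The count of lower genes, 768, was 414 with a pseudocount of 5, 295 with a minimum of 20 CPM, 1213 in Y-linked cells and 1456 with cells weighing equally. With a minimum of 20 CPM, fewer genes were measured, and 909 genes were higher and 644 lower than in wild type. The share of columnar cells was 18.46% with the keratin minimum of 20, 14.5% with the Krt13 and Krt4 limit of 25, 22.4% with the mitochondrial maximum of 5%, 19.8% in Xist cells and 33.5% in Y-linked cells. These are shares of all filtered p63-KO cells, stromal cells included. Of the 423 stromal cells, 400 had Xist UMIs only and 13 had Y-linked UMIs only. The last 2 shares are therefore not a comparison within the epithelium.

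Other alternatives were chosen after seeing the data. With fibroblast markers of at most 20 CP10K, 6 genes were higher against the other p63-KO cells. With the keratin minimum on the other p63-KO cells, 57 genes were higher and 330 lower, the log2 ratio of Acta2 turned to 1.31, and the median of the mesenchymal list turned to 0.73; without subclusters 1 and 6 as well, these were -0.69 and -0.01. Without cells with both Xist and Y-linked UMIs, 9 genes were higher and the share was 19.0%. Without subcluster 1, 10 genes were higher and the share was 18.7%; without subcluster 6 the share was 22.5%. Without both, 12 genes were higher, 1190 lower and the share was 16.6%, and with the keratin minimum added 21 were higher. The causes of these shifts were not tested beyond the cells or genes each setting leaves out.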
